A study of Brassica napus with 112 samples.

Results

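Developing seeds of the spring rapeseed (Brassica napus) hybrids Lumen and Solar were compared in plots that were not heated, in the second of 2 field seasons. The libraries were chosen by their labels alone: tissue seed, treatment control and season 2, which gave 8 Lumen libraries (4 at 7 and 4 at 14 days after flowering, DAF) and 8 Solar libraries (4 at 7 and 4 at 14 DAF), or 16 of the 112 libraries of the series. All 16 come from one sowing at Valdivia, Chile, and from plants of the same treatment, so hybrid, sampling time and replicate number are what differs among them. Seeds of several plants of a plot were pooled, and the replicate numbers run to 4 although 3 replicates are described for the field layout of that season. That layout was a randomized block design, and it is not stated whether the replicate numbers stand for blocks. The study also states that every biological replicate came from a separate field plot, which a layout of 3 replicates does not explain. The p-values therefore measure the spread between these libraries, and it is not settled how many independent plots lie behind them. The rest of the series holds the heated plots, the first season and the siliques (pods), and was used only to see where the hybrid difference recurred.

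Rapeseed carries 2 related genomes, A and C, so most of its genes exist as an A copy and a matching C copy (homoeologues) on chromosomes such as A03 and C03. A seed at these stages holds a maternal seed coat, an endosperm and a young embryo, and over the following weeks the embryo turns sugar from the pod into oil and storage protein through glycolysis and fatty acid synthesis. The seeds that form on a hybrid plant are the next generation, in which the parental alleles of the hybrid segregate, while the seed coat keeps the genotype of the mother plant. Each gene was given as the deposited value, a whole number close in size to TPM (transcripts scaled to a fixed total per library), and differences are Lumen minus Solar on the log2(value + 0.5) scale, which understates the change of genes with low values. A gene counted as called when the adjusted p (q) of limma's moderated test was under 0.01.

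The summed value per library ranged from 916943 to 1087911, and 51667 to 55414 of the 101040 gene models had a value of at least 1. The 10 highest genes took 3.97% to 6.23% of a library. The tissue label was checked with 100 genes that separated seeds and siliques in the first season, which the comparison does not use. These seed genes had a mean log2 value of 5.67 to 9.16 in the 16 libraries, against -0.74 to 3.57 in the season 2 control siliques, and the 100 silique genes had -0.52 to 0.63 in the seeds, against 6.32 to 7.34 in the siliques. All 16 libraries therefore read as seed. Within that range the seed genes were lower in Lumen at 14 DAF, at 6.9 to 7.8, against 8.0 to 9.2 in Solar, without overlap. At 7 DAF they were at 5.7 to 8.0 in Lumen, against 6.8 to 8.7 in Solar, and overlapped. What lies behind this difference was not tested.

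The hybrid label was checked with genes that mark one hybrid in the 28 other seed libraries (a value of at least 10 in every library of one hybrid and at most 1 in every library of the other). The 10 genes that marked Lumen summed to 424 to 517 in the Lumen libraries, against 0 to 4 in the Solar libraries. The 19 genes that marked Solar summed to 4 to 10 in 6 of the Lumen libraries, against 766 to 1147 in the Solar libraries. The other Lumen libraries, replicates 3 and 4 at 14 DAF, stood apart with sums of 49 and 63, which are 5.15% and 6.62% of the mean Solar sum. In replicate 4 the signal was spread, with a value of at least 2 in 11 of the 19 genes and no value above 13. In replicate 3 only 5 genes reached 2, and values of 20 and 18 in single genes made up most of the sum. The results below that replicate 4 at 14 DAF could touch most are also given without it. Leaving out replicate 3 at 14 DAF gave 9933 calls over both times and 2789 at 14 DAF. The chromosome runs, the genes near 0 in one hybrid and the gene groups below were not redone without replicate 3.

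The hybrids differed in 10432 of 52995 genes tested over both times (19.7%), with 5121 calls towards Lumen and 5311 towards Solar. In whole seeds, fewer cells of a type and less RNA per cell cannot be told apart. The median size of these differences was 0.88 on the log2 scale, 4326 of them were at least 1 and 488 were at least 3. The median difference over all tested genes was 0. With the libraries on a common scale, a shift of all genes together could not be seen. In the same libraries the change from 7 to 14 DAF passed the threshold for 6633 genes. The median residual SD of a gene between replicate libraries was 0.32, and replicate libraries of a group correlated with r of 0.879 to 0.949 across genes. Without replicate 4 of Lumen at 14 DAF, 9530 genes were called, and 9289 of them were among the 10432 with the same sign.

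At 7 DAF alone, 5378 of 53123 genes were called (10.1%), with 2534 higher in Lumen and 2844 higher in Solar. With the replicate number as a block, which leaves fewer residual degrees of freedom, the count was 2142 (1009 higher in Lumen and 1133 higher in Solar). Same-numbered libraries of that time deviated together, but so did replicate 1 of one hybrid with 4 of the other, and 2 with 3. At 14 DAF alone, 3306 of 54474 genes were called (6.07%), with 1835 higher in Lumen and 1471 higher in Solar. This count was the less stable of the pair. It was 1925 to 2789 when 1 library was left out, and it moved by more than 1.5 times without replicate 1 or 4 of Lumen or replicate 1, 2 or 4 of Solar. With the replicate number as a block it fell to 116 (90 higher in Lumen and 26 higher in Solar). Same-numbered libraries of 14 DAF did not deviate together. The values of the hybrids did not overlap at either time for 5201 genes, of which 5167 were called, while 19.7% of all tested genes were called.

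The libraries of 7 and 14 DAF share no library, so the calls of one time can be read against the other. The labels do not say whether seeds of both times came from the same plots. The study describes sampling plants of the plots at both stages, so the times may share plots and need not be independent. Of the 50999 genes tested at both times, 1970 were called at both with the same sign, which is 38.1% of the calls at 7 DAF and 64.6% of those at 14 DAF, and 0 were called with opposite signs. Of the genes called at 7 DAF, 97.5% had the same sign at 14 DAF, and of those called at 14 DAF, 97.7% had the same sign at 7 DAF.

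**Figure D1:**
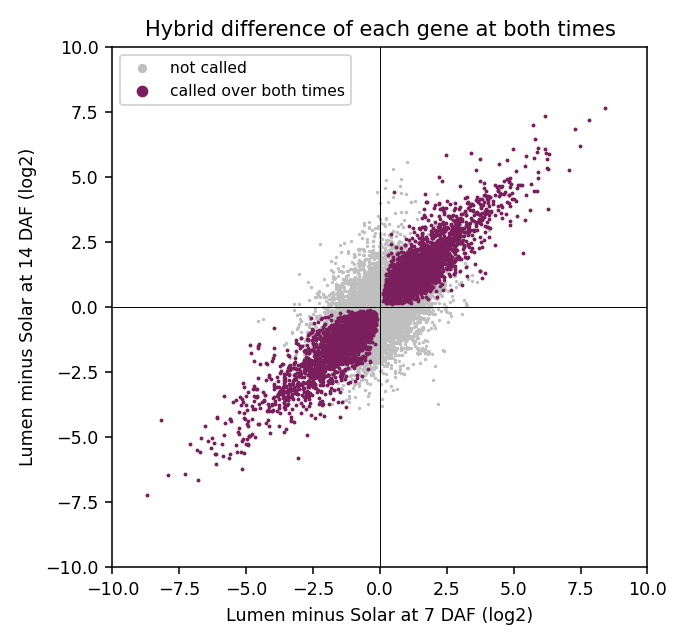
Each point is a gene tested at both times, with the Lumen minus Solar difference at 7 DAF on the x axis and at 14 DAF on the y axis, both in log2 units; purple points were called in the fit over both times. The called genes lie in the upper right and lower left quadrants, the 4 groups having 4 libraries each.

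The test of whether the hybrid difference changed between 7 and 14 DAF called 13 of 52995 genes (0.0245%) in limma, with 4405 genes at an unadjusted p under 0.05. Of the 13 genes, 9 had a mean value under 1, where whole numbers of 0 and 1 leave no spread between replicates, and 1 a mean value of 20 or more. That gene, BnaC03g02720D, was singled out for this reason after its values were seen. It had values of 2, 4, 4 and 2 in Lumen at 7 DAF and 14, 34, 36 and 26 in Lumen at 14 DAF, against 104, 76, 107 and 103 in Solar at 7 DAF and 69, 83, 66 and 70 in Solar at 14 DAF. It was thus lower in Lumen at both times, far lower at 7 DAF, and the groups overlapped at neither time. The difference was -4.86 ± 0.25 (SE, n = 4 each) at 7 DAF and -1.45 ± 0.29 at 14 DAF, and the interaction was 3.40 ± 0.39 (limma, Benjamini-Hochberg adjusted p = 0.00543). The interaction calls were unstable. In limma 0 genes were called after rescaling of the libraries by median ratios (4396 at an unadjusted p under 0.05), 0 with the replicate block (4579) and 0 without replicate 4 of Lumen at 14 DAF (4213), and the count was 0 to 2 without any one of 13 of the 16 libraries. BnaC03g02720D was also lower in Lumen in the season 1 seeds (-4.19), the heated seeds (-2.39) and the siliques (-1.68).

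The hybrid difference recurred in libraries that were not used for the calls. In the season 1 control seeds, with 6 libraries of each hybrid, 9811 of 53964 genes were called (18.2%). Of the 10252 season 2 calls tested there, 91.1% had the same sign, 5838 were called with the same sign and 53 with the opposite sign. In the season 2 heated seeds, with 8 libraries of each hybrid, 5913 of 53528 genes were called (11%), and of 10151 season 2 control calls 97.4% had the same sign, 4919 were called with the same sign and 0 with the opposite sign. In the season 2 control siliques, a different tissue with 8 libraries of each hybrid, 7832 of 54345 genes were called (14.4%), and of 9653 calls 89.8% had the same sign, 4675 were called with the same sign and 40 with the opposite sign. Over all genes tested, called or not, the same sign was found for 65.3%, 74.1% and 67.3% in season 1 seeds, heated seeds and siliques. In all 3 other sets, 2785 genes were called with the sign they had here, 1272 higher in Lumen and 1513 higher in Solar. Without replicate 4 of Lumen at 14 DAF, the same sign was found for 92.7%, 97.9% and 90.9% of the calls in season 1 seeds, heated seeds and siliques. The shared calls made up 59.5% of the calls of the season 1 seeds, 83.2% of those of the heated seeds and 59.7% of those of the siliques.

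The hybrid difference was also set against that of season 1 directly. The interaction of hybrid and season in control seeds was called for 1326 of 53763 genes (2.47%), with 879 differences more towards Lumen and 447 more towards Solar in season 2. Among the season 2 calls, 518 of 10363 tested had such an interaction (5%). The same season 2 libraries gave the calls and entered the interaction, so a share above 2.47% can follow from that choice. Without replicate 1 of Solar at 14 DAF in season 1 the count was 929, and without replicate 4 of Lumen at 14 DAF in season 2 it was 1110.

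How far seed development had gone was read from genes that changed with time in the season 1 control seeds. Of 4950 such genes, 3079 rose and 1871 fell by 14 DAF, and the stage score of a library was the mean log2 value of the 200 that rose most minus that of the 200 that fell most. At 7 DAF the scores were -3.35, 0.36, -0.15 and -2.65 in Lumen, against -3.71, -1.60, -1.79 and -3.62 in Solar. In both hybrids replicates 1 and 4 were low and replicates 2 and 3 were higher, and the hybrids overlapped. At 14 DAF the scores were 4.07, 7.03, 3.74 and 5.16 in Lumen, against -0.75, 1.53, 3.48 and 2.51 in Solar. All 4 Lumen libraries were above all 4 Solar libraries, and replicate 1 of Solar at 14 DAF lay within the range of the Lumen seeds of 7 DAF. The means at 7 DAF were -1.45 ± 1.83 in Lumen, against -2.68 ± 1.14 in Solar, and those at 14 DAF 5.00 ± 1.48 in Lumen, against 1.69 ± 1.82 in Solar (SD, n = 4 each).

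**Figure D2:**
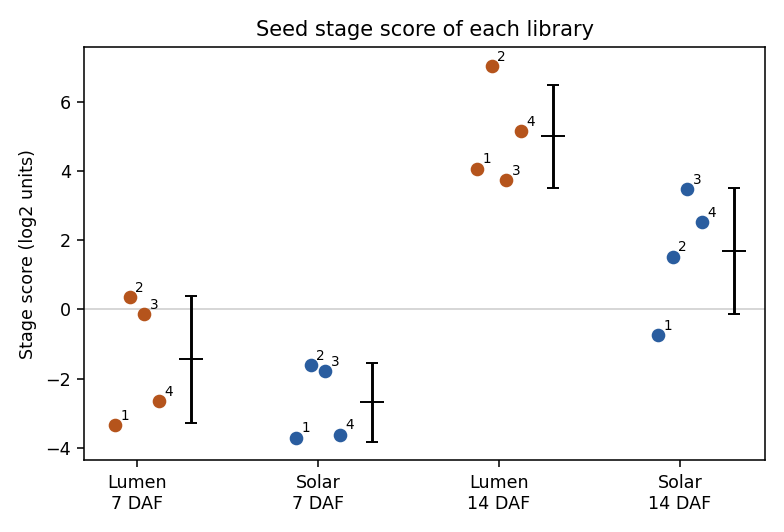
Stage score of each library in log2 units, from genes of the season 1 control seeds; points are libraries with their replicate number, orange for Lumen and blue for Solar, and the black bars give the mean and SD of 4 libraries. At 14 DAF Lumen lies between 3.74 and 7.03 and Solar between -0.75 and 3.48.

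The hybrid calls moved with these time genes. Of 2968 genes that rose with time in season 1, 18.6% were called higher in Lumen and 4.25% higher in Solar, with a median difference of 0.31. Of 1797 genes that fell with time, 4.95% were called higher in Lumen and 15.5% higher in Solar, with a median difference of -0.18. Most of the 52995 tested genes, 46933, had no time call in season 1. Of these, 9.35% were called higher in Lumen and 10.3% higher in Solar, and such genes may still change with stage. With the stage score as a further covariate 7510 genes were called, 6621 of them among the 10432 with the same sign, and all 10432 kept their sign. Both hybrids came from the same sowing, and the part of flowering dates or growth rate in the stage difference was not tested.

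The calls were uneven along the genome. Chromosomes were read from the gene identifiers, and their running number served as the order of genes, without coordinates. Genes of the A genome were called higher in Lumen more often (12.6%) than higher in Solar (9.57%), and those of the C genome less often (7.11% against 10.4%). C09 had the largest share in one direction, with 6.34% of its 2790 tested genes higher in Lumen and 24.2% higher in Solar. C05 leaned the same way, with 4.67% and 15.4%, and A05 the other way, with 16.1% higher in Lumen and 5.73% higher in Solar.

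Over 946 windows of 50 neighbouring tested genes, the median difference was 0.00 with quartiles of -0.06 and 0.06. Runs of at least 3 windows with medians beyond 0.3 in one direction occurred 7 times and held 2500 genes, 4.72% of those tested, with 12.2% of the calls. The longest covered the first 900 tested genes of C09 (BnaC09g00010D to BnaC09g17400D), among which 36 calls favoured Lumen and 431 Solar, with a median difference of -0.63. After 1 window that leaned the same way but did not reach 0.3, the next 250 genes of C09 followed, with 13 higher in Lumen, 108 higher in Solar and a median of -0.46. No run fell on A09 or A10, the A chromosomes related to C09.

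The other 5 runs fell on A03, C03, A05 and C05. A03 and C03 are homoeologous chromosomes, and their runs lay at the same end with opposite signs. Genes were not matched to their homoeologues, so the runs need not hold matching copies. The first 250 tested genes of A03 had 18 genes higher in Lumen and 102 higher in Solar (median -0.45), whereas the first 350 of C03 had 170 higher in Lumen and 13 higher in Solar (median 0.68). Summed over its genes, the A03 run ranged from 3465 to 5048 in the Lumen libraries (median 4717), against 5890 to 7052 in the Solar libraries (median 6077), with no overlap. The lowest of the Lumen sums was that of replicate 3 at 14 DAF. The C03 run ranged from 5365 to 7755 in Lumen (median 6708), against 4419 to 6331 in Solar (median 5105), and overlapped. Added together, both runs gave 10248 to 12412 in Lumen (median 11156) and 10309 to 12735 in Solar (median 11586), which overlap over most of their range. The runs were found in these values and hold 250 and 350 genes, so the sum describes them and does not compare matching copies.

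A05 and C05 also had runs with opposite signs, at 60.9% to 74.5% of the tested genes of A05 and 71.4% to 81.9% of those of C05. Here, too, no gene was matched to its homoeologue. On A05, 300 genes from BnaA05g24100D to BnaA05g28610D had 127 higher in Lumen and 4 higher in Solar (median 0.48). On C05, 300 genes from BnaC05g37780D to BnaC05g43180D had 7 higher in Lumen and 181 higher in Solar (median -0.88), with the lowest window of the genome at -1.35. The summed value of the C05 run was 2732 to 4031 in Lumen (median 3468), against 5180 to 6881 in Solar (median 5986), with no overlap. That of the A05 run was 4431 to 6543 in Lumen (median 6074), against 3709 to 4798 in Solar (median 3964), with a small overlap. Added together the runs gave 7163 to 10574 in Lumen (median 9546) and 8889 to 11679 in Solar (median 9950). A further run on A05 (BnaA05g06660D to BnaA05g09280D, 150 genes) had 55 genes higher in Lumen and 4 higher in Solar. With a pseudocount of 5, which weighs low values less, only 3 runs with 800 genes met the same rule. Over the genes of the 7 runs the medians were then smaller, at -0.24 for A03, 0.35 for C03, 0.22 and 0.29 for the earlier and later run of A05, -0.44 for C05, and -0.30 and -0.24 for the runs of C09. Near-identical A and C copies can exchange reads in pseudoalignment, and how far this touched the runs was not tested.

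**Figure D3:**
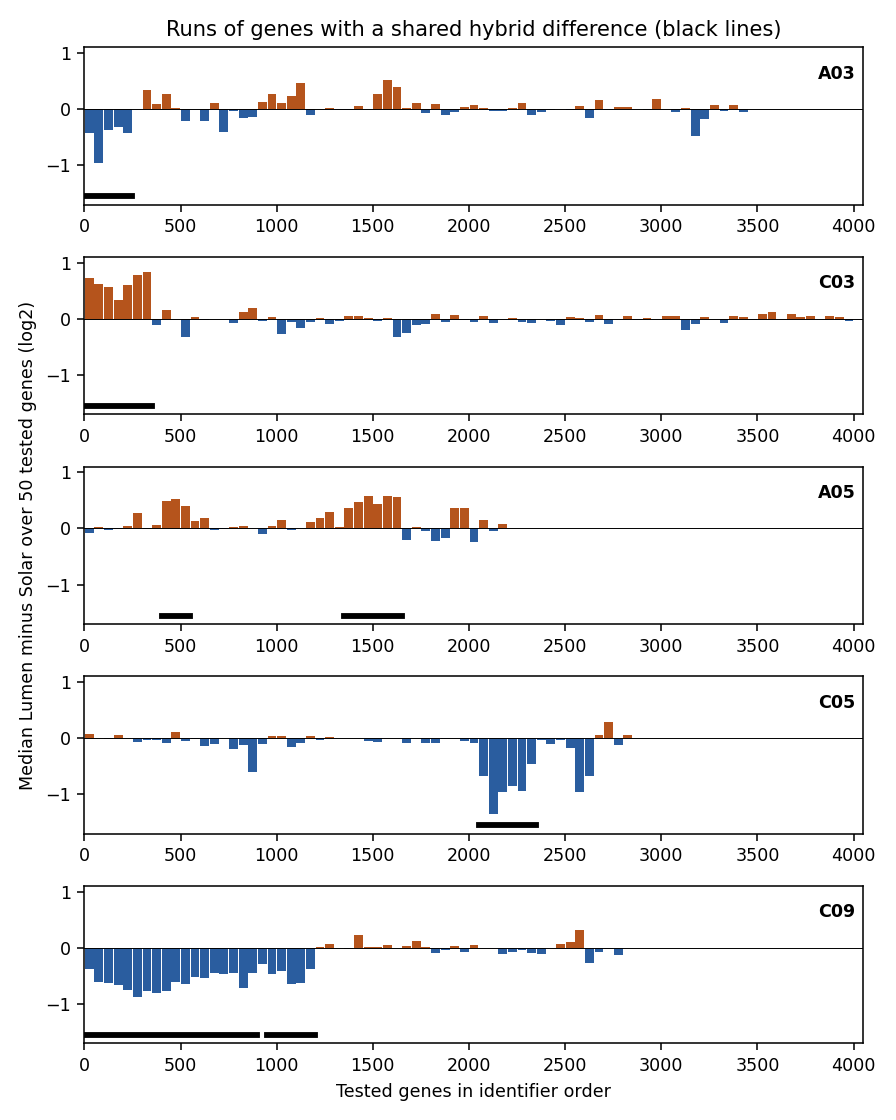
Bars give the median Lumen minus Solar difference (log2) over 50 tested genes in identifier order on 5 chromosomes, orange above and blue below 0, and black lines mark the 7 runs. A03 and C03 differ in opposite directions at their first genes, A05 and C05 in their second part, and C09 is lower in Lumen over its first 1200 genes.

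Each run had the same direction in libraries outside the comparison. In the first C09 run, 877 genes were tested in season 1 control seeds, with 24 calls towards Lumen, 401 towards Solar and a median of -0.67, and the medians were -0.73 in heated seeds and -0.60 in siliques. The C05 run had medians of -0.91, -0.98 and -0.90 in season 1 seeds, heated seeds and siliques. The C03 run had medians of 0.64, 0.57 and 0.65, the A03 run -0.47, -0.50 and -0.42, and the later A05 run 0.54, 0.45 and 0.60. At 7 and 14 DAF alone the C05 run had medians of -0.94 and -0.84. Without replicate 4 of Lumen at 14 DAF the medians were -0.46 for A03, 0.46 and 0.48 for A05, 0.66 for C03, -0.88 for C05, and -0.63 and -0.46 for C09. The runs were found in these data, so their medians and sums here only describe them.

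Some genes had values in one hybrid alone. A value of at least 10 in all 8 libraries of one hybrid and at most 1 in all 8 of the other was found for 34 genes, 22 present in Lumen and 12 present in Solar. Such a gene passes the filter only through the hybrid where it is present, so the count is a description. Of the 22 genes present in Lumen, 16 were on A chromosomes or unplaced A scaffolds, and of the 12 present in Solar, 10 belonged to the C genome. Among all genes tested over both times, 24914 belonged to the A genome and 27915 to the C genome. Without replicate 4 of Lumen at 14 DAF, 23 genes were present in Lumen alone and 29 in Solar alone, so that library kept 17 genes off the Solar list. BnaA06g17370D and BnaA09g11270D, both of the A genome, were among these, so the genome split of the 12 depends on that library. The rule itself was met again by 15 of the 22 genes present in Lumen and 8 of the 12 present in Solar in the season 1 control seeds, by 7 and 5 in the heated seeds, and by 6 and 5 in the siliques. The hybrids did not overlap in the same direction for 22 of the 22 and 10 of the 12 in season 1 seeds, for 18 and 11 in heated seeds, and for 21 and 12 in siliques. Of all genes tested in these sets, 5.04%, 2.1% and 2.42% lay wholly higher in Lumen and 5.61%, 3.04% and 2.22% wholly higher in Solar. Of the 34 genes, 1 lay in the runs described above.

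The 4 genes given here have the 2 most positive and the 2 most negative differences among 1558 called genes whose mean value was 20 or more and whose hybrids overlapped at neither time. None has a name or a product in the tables used here. BnaA03g08760D, on A03, had values of 151, 152, 199 and 183 at 7 DAF and 141, 67, 89 and 121 at 14 DAF in Lumen, and it was listed at 0 in all 8 Solar libraries. Its Lumen means were 171 ± 23.7 at 7 DAF and 104.5 ± 32.9 at 14 DAF (SD, n = 4 each). In siliques it was not tested because too few libraries reached a value of 1. BnaA03g53860D had values of 126, 88, 119 and 124 at 7 DAF and 110, 98, 102 and 80 at 14 DAF in Lumen, and it was listed at 0 in 7 Solar libraries and at 1 in the other. Both passed the filter through Lumen alone and were picked for their size, so their differences get no test here.

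The genes at the other end were present in Solar. BnaA06g17370D was listed at 0 in 6 Lumen libraries, at 1 in replicate 3 and at 13 in replicate 4 of 14 DAF, against 224, 184, 254 and 186 in Solar at 7 DAF and 236, 321, 159 and 207 in Solar at 14 DAF. BnaA09g11270D was listed at 0 in 7 Lumen libraries and at 10 in replicate 4 of 14 DAF, against 90, 89, 213 and 121 in Solar at 7 DAF and 121, 154, 47 and 90 in Solar at 14 DAF. Without replicate 4 of 14 DAF no Lumen library had a value above 1 for either gene. These genes, too, passed the filter through one hybrid and were picked for their size. Both genes are among the 19 that mark Solar, and BnaA03g53860D is among the 10 that mark Lumen, so the value in replicate 4 repeats what was said of that library. All 4 genes had the same direction in the season 1 seeds and the heated seeds.

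**Figure D4:**
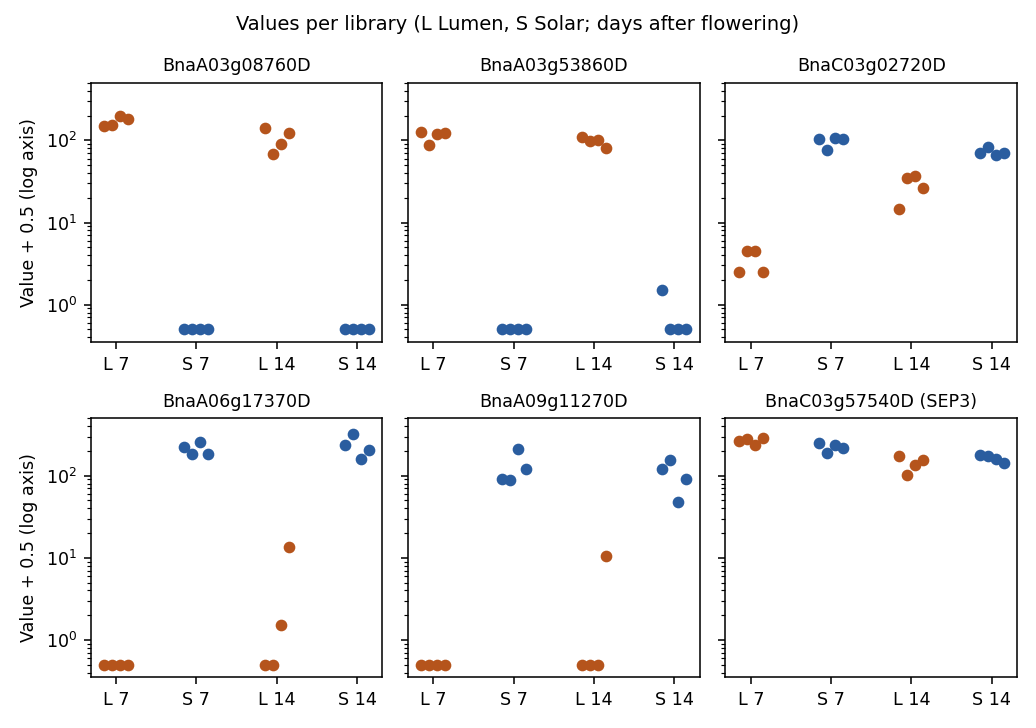
Values per library plus 0.5 on a log axis for 6 genes, at 7 and 14 DAF, orange for Lumen (L) and blue for Solar (S), 4 libraries a group. BnaA03g08760D and BnaA03g53860D are at or near 0 in Solar, BnaA06g17370D and BnaA09g11270D are at or near 0 in Lumen except in replicate 4 of 14 DAF, and SEP3 overlaps.

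The study names 10 transcription factors in connection with its seed network, and none of them was called over both times, against 19.7% of all genes tested. SEP3 (BnaC03g57540D), a MADS-box factor known in Arabidopsis for floral organ identity, had the highest value of the 10 on average. At 7 DAF it was 266 ± 22.5 in Lumen, against 224 ± 26.5 in Solar, and at 14 DAF 140.5 ± 29.9 in Lumen, against 163.5 ± 15.2 in Solar (SD, n = 4 each). Its difference was 0.25 ± 0.10 (SE) at 7 DAF and -0.24 ± 0.17 at 14 DAF, and 0.01 ± 0.12 over both times (limma adjusted p = 0.991). In season 1 control seeds it was 0.70 (limma adjusted p = 0.00047), and the interaction of hybrid and season was called (adjusted p = 0.00652).

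PHL2 (BnaC03g43430D), a MYB-type factor, was almost flat, with 44 to 54 in the Lumen libraries and 46 to 50 in the Solar libraries and a difference of -0.01 ± 0.05 (SE). ABI4 (BnaA03g18970D), which acts in abscisic acid signalling in Arabidopsis seeds, had values of 16, 16, 10 and 6 in Lumen at 7 DAF, against 10, 11, 15 and 9 in Solar, and 5 to 8 in every library of 14 DAF. MYC67 (BnaC08g31840D) had values of 22, 31, 26 and 26 in Lumen, against 21, 21, 22 and 25 in Solar at 7 DAF, and 44, 32, 40 and 40 in Lumen, against 26, 32, 39 and 28 in Solar at 14 DAF. Its difference of 0.27 ± 0.09 (SE) missed the threshold (limma adjusted p = 0.0387). ARF2 (BnaA06g21460D), an auxin response factor that limits seed size in Arabidopsis, had 24.0 ± 4.08 in Lumen, against 25.3 ± 3.59 in Solar at 7 DAF, and 15.5 ± 3.11 in Lumen, against 21.3 ± 2.22 in Solar at 14 DAF (SD, n = 4 each). At 14 DAF all 4 Lumen values were below all 4 Solar values, and the difference of -0.46 ± 0.16 (SE) missed the threshold (limma adjusted p = 0.105). Over both times the ARF2 difference was -0.27 ± 0.12 (SE), and with the stage score as a covariate it turned to 0.04.

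The nearest to the threshold were BnaA06g29050D, with a difference of 0.21 ± 0.06 (SE, limma adjusted p = 0.0168), and BnaC05g51140D, with -0.27 ± 0.08 (adjusted p = 0.021). The study gives no symbol for either. INO1 (BnaC05g18750D), OSX2 (BnaA04g24200D) and NGA1 (BnaC03g72370D) had differences of -0.18 ± 0.13, -0.04 ± 0.10 and -0.31 ± 0.37 (SE). NGA1 was at 0 to 3 in all 16 libraries, so a difference could hardly be seen at this level.

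Gene functions were available for 21 groups of genes, taken from the terms that the study listed for 3 modules of its seed network (firebrick, lightskyblue2 and lightblue3). Each group holds only the genes of a term that fell in a single module, so copies outside the module were not counted. Called genes were higher in Solar in every lightblue3 group and higher in Lumen in every lightskyblue2 group. The direction of such a group is thus that of its module. The network was built on 28 libraries of 7 DAF that include 8 of the 16 used here, and its modules group genes that vary together. The groups therefore had a direction by construction, and their counts are no independent evidence of it. The 14 DAF libraries were outside the choice, but hybrid differences mostly shared their sign between the times. Of the genes called at 7 DAF, 97.5% had the same sign at 14 DAF, so the 14 DAF signs of the groups are a description as well. In 4 groups the list at hand stops at 44 genes. For each group with a called gene whose mean value was 20 or more, the one with the largest difference is named, a rule set after the values were seen, so that its difference is a description. The counts stand beside 19.7% called among all genes tested and 25.8% among those with a mean value of 20 or more.

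In carbon metabolism, the called photosynthetic genes (lightblue3) were all higher in Solar and the called glycolytic genes (lightskyblue2) all higher in Lumen. Each list stops at 44 genes. Of 44 photosynthesis genes, 0 were called higher in Lumen and 25 higher in Solar (median -0.50), and at 14 DAF 2 differences were positive and 42 negative. BnaC07g09400D of this group had 22, 11, 16 and 10 in Lumen, against 53, 43, 41 and 55 in Solar at 7 DAF, and 14, 28, 10 and 19 in Lumen, against 44, 88, 37 and 61 in Solar at 14 DAF. The groups did not overlap at either time, and the difference was -1.71 ± 0.22 (SE). All 4 genes listed for phosphoribulokinase, the enzyme that renews the carbon dioxide acceptor of the Calvin cycle, were higher in Solar (median -0.62). So were all 5 listed for oxaloacetate metabolism (median -0.63). For oxaloacetate metabolism, BnaA09g16400D had 114 to 152 in the Lumen libraries and 172 to 263 in the Solar libraries.

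Of 44 glycolysis genes, 25 were called higher in Lumen and 0 higher in Solar (median 0.50), and at 14 DAF 39 differences were positive and 5 negative. BnaA05g33200D had 117, 126, 149 and 114 in Lumen, against 4, 4, 5 and 5 in Solar at 7 DAF, and 68, 47, 111 and 45 in Lumen, against 2, 3, 2 and 3 in Solar at 14 DAF. The groups were far apart, with a difference of 4.55 ± 0.16 (SE). For enolase, which forms phosphoenolpyruvate late in glycolysis, 4 of 6 genes were higher in Lumen (median 0.44). The called gene with the largest difference, BnaA03g16750D, had 37 to 46 in the Lumen libraries and 19 to 29 in the Solar libraries.

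Sulfur metabolism had groups on either side. Cysteine synthase makes cysteine from O-acetylserine and sulfide, and 8 of the 10 genes listed (lightblue3) were called, all towards Solar (median -0.87). BnaC05g46930D had 3, 4, 3 and 1 in Lumen, against 33, 40, 43 and 40 in Solar at 7 DAF, and 7, 5, 5 and 5 in Lumen, against 66, 47, 68 and 56 in Solar at 14 DAF. The difference was -3.51 ± 0.19 (SE), and 2 of the genes listed near 0 in Lumen have neighbouring identifiers. Methionine adenosyltransferase makes S-adenosylmethionine, and 5 of the 6 genes listed (lightskyblue2) were higher in Lumen (median 1.06). BnaA05g07530D, which lies in the first A05 run, had 163, 241, 215 and 190 in Lumen, against 97, 121, 111 and 82 in Solar at 7 DAF, and 279, 302, 302 and 299 in Lumen, against 143, 157, 157 and 185 in Solar at 14 DAF, a difference of 0.93 ± 0.09 (SE). Of 7 adenylylsulfate kinase genes, 0 were called in either direction in limma (median 0.03).

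The groups for protein folding held 145 entries, where a gene listed in more than 1 group counts each time. Of these, 52 were called higher in Lumen and 5 higher in Solar, and the rest were not called. The firebrick group held 2 of the calls towards Lumen and all 5 towards Solar. All other calls fell in lightskyblue2 groups, so the pooled count carries the direction of that module. Of 31 genes for the response to endoplasmic reticulum stress, 16 were called higher in Lumen and 0 higher in Solar (median 0.48), and 30 of the 31 differences were positive at 14 DAF. BnaA08g26530D of this group had 109 to 210 in the Lumen libraries (180 to 210 at 7 DAF), against 30 to 50 in the Solar libraries. The difference was 2.08 ± 0.13 (SE). For the chaperonin-containing T-complex, which folds actin and tubulin, 7 of 16 genes were higher in Lumen (median 0.31), led by BnaA02g05110D with 39 to 63 in Lumen and 3 to 16 in Solar. Protein disulfide isomerases had 5 of 11 genes higher in Lumen (median 0.17), BnaAnng12480D having 26 to 49 in Lumen and 14 to 26 in Solar, which touch.

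The protein folding genes of the lightskyblue2 module had 22 of 44 higher in Lumen and 0 higher in Solar, and BnaA10g14240D had 35 to 41 in Lumen and 1 to 5 in Solar. Those of the firebrick module were mixed, with 2 of 43 higher in Lumen and 5 higher in Solar (median 0.09), and BnaC09g05410D of the first C09 run had 28 to 45 in Lumen and 47 to 98 in Solar. The ubiquitin-conjugating enzymes, which hand ubiquitin to proteins marked for turnover, had 0 of 21 genes higher in Lumen and 18 higher in Solar (median -0.74). BnaA09g11510D had 27, 28, 23 and 24 in Lumen, against 91, 80, 105 and 112 in Solar at 7 DAF, and 20, 18, 31 and 20 in Lumen, against 88, 81, 72 and 80 in Solar at 14 DAF (difference -1.88 ± 0.10, SE).

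The U1 snRNP recognises the 5′ splice site of introns, and 11 of the 16 genes listed were higher in Lumen (median 0.94). BnaC04g56220D had 47 to 88 in Lumen and 9 to 39 in Solar. Among membrane functions, 6 of 9 genes of the V1 domain of the V-type ATPase, the proton pump of the vacuole, were higher in Lumen (median 0.53), and BnaA08g24550D had 31 to 41 in Lumen and 16 to 23 in Solar. Nucleotide-sugar transporters, which feed sugars to the Golgi for cell wall polysaccharides, had 12 of 17 genes higher in Lumen (median 0.60). BnaC08g19660D had 36 to 42 in Lumen and 28 to 36 in Solar at 7 DAF, and 49 to 57 in Lumen and 40 to 48 in Solar at 14 DAF, a small difference of 0.29 ± 0.06 (SE). In the clathrin adaptor complex, which sorts cargo into vesicles, 5 of 11 genes were higher in Solar (median -0.14), and BnaC01g03160D had 13 to 20 in Lumen and 30 to 37 in Solar. Ferroxidase genes, the group that holds iron-storing ferritins, had 3 of 6 higher in Lumen (median 1.01). BnaC03g00160D of the C03 run had 94, 171, 102 and 106 in Lumen, against 60, 24, 26 and 47 in Solar at 7 DAF, and 158, 344, 134 and 207 in Lumen, against 30, 34, 78 and 12 in Solar at 14 DAF, a difference of 2.14 ± 0.35 (SE).

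The MCM complex unwinds DNA for replication, and 3 of the 7 genes listed were called higher in Solar (median -0.31). The medians were -0.44 at 7 DAF and -0.14 at 14 DAF. For protein import into the peroxisome matrix, 2 of 8 genes were higher in Solar (median -0.17), a share close to that of all genes. All 7 MCM genes and all 10 cysteine synthase genes had a negative difference at 14 DAF, and all 6 enolase, all 16 chaperonin and all 6 ferroxidase genes a positive one. Without replicate 4 of Lumen these signs held except in 1 of the 7 MCM genes. Because the stage score also separated the hybrids at 14 DAF, the part of seed stage in these groups was not tested.

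**Figure D5:**
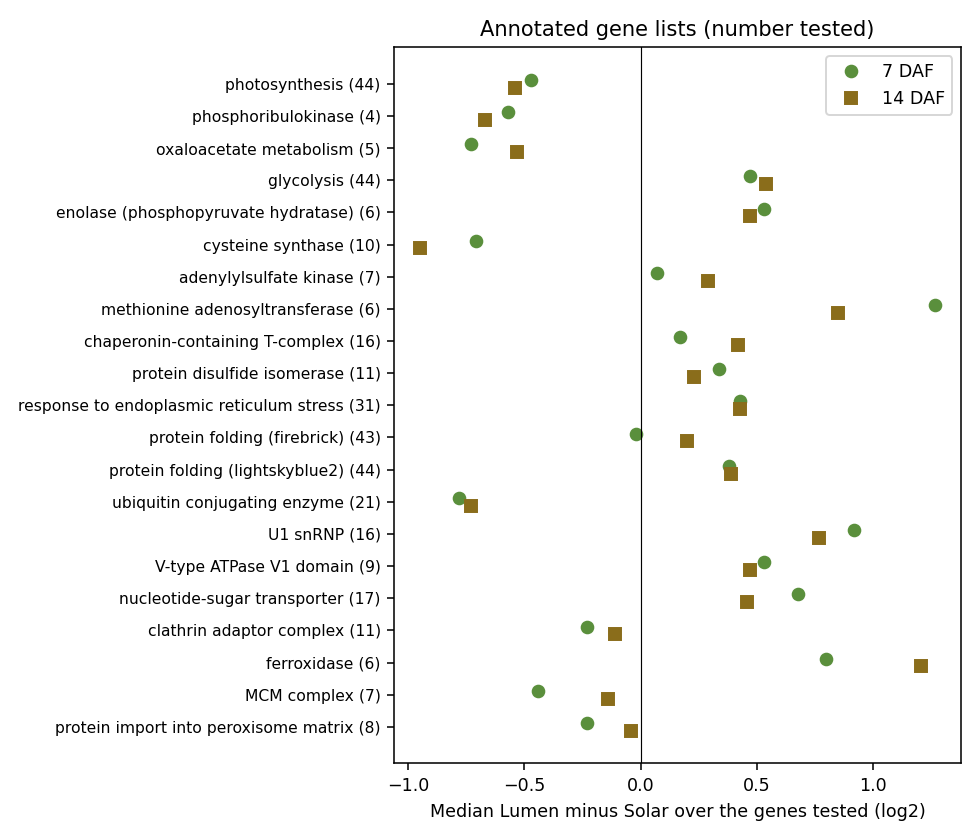
Median Lumen minus Solar difference (log2) of 21 annotated gene groups at 7 DAF (circles) and at 14 DAF (squares), with the number of genes tested in parentheses. The medians at 14 DAF range from -0.95 for cysteine synthase to 1.21 for ferroxidase, and those of protein folding in the firebrick module differ in sign between the times.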

How the data were processed

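Total RNA of the seeds was sequenced. The authors pseudoaligned the reads with kallisto (0.46 in the submitters' processing notes) to the transcripts of the reference annotation and tested genes with sleuth. The deposited table gives 101040 genes as whole numbers, which were treated as a normalized, rounded score, since their scaling is not given in the sources used here. They sum to 916943 to 1087911 per library, so the reads behind a value are unknown and the spread between libraries served as error.

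Groups came from the labels. Values were transformed to log2(value + 0.5) and tested with limma 3.58.1 in R 4.3.3 (data.table package, version 1.17.8), with a variance trend, time as covariate and Benjamini-Hochberg adjustment over genes that reached a value of 1 in 8 of 16 libraries (4 of 8 at a single time). The code was tested on simulated data. Same-numbered Lumen and Solar libraries deviated together at 7 DAF (r of 0.139 to 0.371 for the 4 pairs) but not at 14 DAF (-0.0674 to 0.165). At 7 DAF the pairs 1 with 4 and 2 with 3 were as high (0.21 to 0.316), so the correlation is not specific to the numbers, and the block is given beside the result without it. No pair of replicates held identical values.

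The 10 transcription factors are those the study names. The other named genes have the largest differences of either sign among called genes whose mean value was 20 or more and whose hybrids overlapped at neither time, limited to 2 of each sign because they lack names, and 1 gene for each annotated group. The planned groups by product name could not be matched, because the gene table at hand gives no products, and Gene Ontology terms of the study's supplement replaced them. The members and lists were chosen with earlier results of these data known. Alternatives were the pseudocount, the filter, rescaling, the trend, the threshold, the libraries fitted, a replicate block, a plot correlation and each library left out. The stage score, the fits on part of the 7 DAF libraries and the marker genes of each hybrid were added after the data had been seen.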

Additional observations from a re-analysis of the deposited data

Results flagged for a closer look

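The test of a change of the hybrid difference with sampling time called 13 genes, among them BnaC03g02720D with 3.40 on the log2 scale between 7 and 14 DAF, but 0 genes with the replicate block (4579 at an unadjusted p under 0.05) or after rescaling (4396). The difference changed with season for 1326 genes, among them SEP3 (BnaC03g57540D, adjusted p = 0.00652), the cysteine synthase gene BnaC05g46930D (adjusted p = 0.00783) and BnaA08g26530D of the endoplasmic reticulum stress group (adjusted p = 0.00073), all from limma with Benjamini-Hochberg adjustment.

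In 156 groups of 4 libraries, 20 single values lay far from the other 3, where chance alone flags about 1 in 20 groups. Whole numbers at low values make such gaps common, since 1 library then differs from 3 equal ones. In replicate 4 of Lumen at 14 DAF, BnaA06g17370D had a value of 13 and BnaA09g11270D a value of 10, while the other Lumen libraries of that time were at 0 or 1. These are the genes and the library described with the markers of Solar.

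Among larger values, BnaC03g00160D (ferroxidase) had 171 in replicate 2 of Lumen at 7 DAF, BnaA09g16400D (oxaloacetate metabolism) 263 in replicate 4 of Solar and 125 in replicate 2 of Lumen at 7 DAF, the other Lumen libraries being equal, and BnaA05g07530D 279 in replicate 1 of Lumen at 14 DAF. BnaC09g05410D had 98 in replicate 4 and BnaC03g02720D 76 in replicate 2 of Solar at 7 DAF. In Lumen at 14 DAF, BnaA03g16750D had 46 in replicate 2, BnaA10g14240D 41 and BnaA09g11510D 31 in replicate 3, and BnaC05g46930D 7 in replicate 1.

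The rest were low values. ABI4 had 8 in replicate 2 of Lumen and 6 in replicate 4 of Solar at 14 DAF, BnaC05g51140D had 4 and 5 in those same libraries, and BnaA06g29050D had 14 in replicate 3 of Solar at 14 DAF. NGA1 had 3 in replicate 3 of Solar at 7 DAF. BnaA03g53860D had 1 in replicate 1 of Solar at 14 DAF, and the genes that mark Lumen summed to 2 in replicate 3 of Solar at 14 DAF.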

How the results depend on the processing

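When genes with a mean value under 20 were left out, 2664 genes were called over both times, 1502 at 7 DAF, 998 at 14 DAF, 1 in the time interaction and 726 in the season interaction. At q under 0.05 the counts were 15651, 9466, 7924, 23 and 4334. Leaving out 1 library at a time gave 9423 to 9933 calls over both times, 3883 to 4230 at 7 DAF, 1925 to 2789 at 14 DAF (2182 without Lumen replicate 1, 1953 without Lumen replicate 4, and 1925, 2085 and 1936 without Solar replicates 1, 2 and 4) and 0 to 20 in the time interaction. The time interaction also had 5 calls with a pseudocount of 5, 88 without a filter, 0 after median-ratio rescaling (4396 genes at an unadjusted p under 0.05), 23 without a trend and 5 in the fit over all 56 seed libraries, which called 7261 genes at 14 DAF. At 7 DAF, replicates 1 and 4 alone gave 3098 calls and replicates 2 and 3 alone 3105. The runs along chromosomes held 800 genes with a pseudocount of 5. Under a stricter rule, 6 genes were at 0 in one hybrid and at least 20 in the other. Under the rule used above (at most 1 against at least 10) there were 34 genes, and 52 without replicate 4 of Lumen at 14 DAF.

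With the replicate number as a block, the counts were 9934 over both times, 2142 at 7 DAF, 116 at 14 DAF, where the numbers did not pair the libraries, and 0 in the time interaction (4579 genes at an unadjusted p under 0.05). The correlation between the 7 and 14 DAF libraries of a hybrid and number was -0.005, and it gave 10466 calls. For single genes 21 alternatives were run (pseudocount, rescaling, block, plot correlation, stage score and each library left out). The 4 genes named for their size kept their sign in each, and no test is read from them. Of the transcription factors, BnaA06g29050D and BnaC05g51140D each passed q under 0.01 in 1 of the alternatives. With the stage score as a covariate ARF2 turned from -0.27 to 0.04.

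At low values the rounding leaves few steps, and the reads per gene are unknown. Seed stage, plot and hybrid cannot be told apart at 14 DAF.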
